A study of Bubalus bubalis with 6 samples.

Results

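Probes that start within the first 3 Mb of a chromosome were examined on arrays of methylated sperm DNA. An array probe was a member if it was no control, lay on chromosomes 1 to 29, started at coordinate 3000000 or lower, and had input DNA well above background on all 6 arrays. Of 110916 autosomal probes with such input signal, 3832 met the rule, out of 177440 non-control probes on the array. Before the filter on input signal 6083 probes lay there, so 63.0% were kept, against 62.6% of all autosomal probes. The members lay on 27 of the 29 autosomes, with none on chromosomes 8 and 9, and 57.5% of them lay on chromosomes 25 (710), 14 (683), 24 (456) and 1 (353).

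The samples were frozen semen of 3 subfertile bulls (1, 4 and 5) and 3 high-fertile bulls (2, 3 and 5) of the water buffalo, Bubalus bubalis, with 1 array per bull. Sheared DNA of 300 to 1000 bp was immunoprecipitated (IP) with an antibody against 5-methylcytosine, labelled with Cy5 and hybridised beside the same bull's Cy3-labelled input DNA. The array carried probes of 60 bases from buffalo CpG islands and promoters. The labels give no age, breed or treatment, and do not say how fertility was scored.

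DNA methylation in mammals is laid mostly on cytosines of CpG dinucleotides. Most of the mature sperm genome is methylated, while CpG-dense promoters stay largely free of the mark. MeDIP pulls down fragments that carry methylated cytosines, so a higher log2(IP/input) marks more antibody-bound DNA at a probe, and fragments with few CpGs bind little even where every one is methylated. Ends of chromosomes hold repeats beside genes, and cattle autosomes have their centromere at 1 end, from which cattle reference sequences are usually written. The files number 29 autosomes, as cattle have, and buffalo have fewer, some of them fused from arms that are separate in cattle. No source used here names the coordinates' build, so whether a low coordinate lies beside a buffalo centromere could not be checked, and "proximal" here means a low coordinate.

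The probe nearest the mean of its run is given for the 4 highest and the 4 lowest proximal runs and for 2 runs per direction of the group comparison. A run is a series of at least 3 tested probes whose starts lie at most 500 bases apart. They are shown because their CpGs, in capitals, are where most methylated cytosine lies. Coordinates and letters are as the deposited tables give them, counted from 1, and no source used here names the strand.
Highest run, chr24:568059-568118: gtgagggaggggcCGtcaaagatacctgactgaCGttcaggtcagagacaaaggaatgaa
Highest run after it, chr14:701654-701713: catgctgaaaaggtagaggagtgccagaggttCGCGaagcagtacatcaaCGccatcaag
High run on chromosome 25, chr25:908542-908601: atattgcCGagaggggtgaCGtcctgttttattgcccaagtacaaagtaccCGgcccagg
High run further along chromosome 14, chr14:2788213-2788272: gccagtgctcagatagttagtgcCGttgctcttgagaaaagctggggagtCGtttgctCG
Lowest run, with an RBBP5 probe, chr16:1922569-1922628: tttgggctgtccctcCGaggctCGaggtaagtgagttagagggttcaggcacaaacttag
Low run on chromosome 13, chr13:1940756-1940815: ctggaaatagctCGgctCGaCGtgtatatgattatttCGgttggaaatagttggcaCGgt
Low run on chromosome 23, chr23:2966419-2966478: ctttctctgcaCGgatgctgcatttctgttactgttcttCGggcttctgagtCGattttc
Low run on chromosome 14, chr14:2329223-2329282: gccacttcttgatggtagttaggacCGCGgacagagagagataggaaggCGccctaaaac
YTHDC2 run, higher in subfertile bulls, chr10:1888717-1888776: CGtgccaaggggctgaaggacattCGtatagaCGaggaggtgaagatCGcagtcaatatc
Unnamed run, higher in subfertile bulls, chr14:566200-566259: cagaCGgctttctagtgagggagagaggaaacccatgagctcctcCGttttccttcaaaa
Unnamed run, lower in subfertile bulls, chr14:1976865-1976924: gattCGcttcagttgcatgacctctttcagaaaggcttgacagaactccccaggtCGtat
Unnamed run, lower in subfertile bulls, chr14:2310333-2310392: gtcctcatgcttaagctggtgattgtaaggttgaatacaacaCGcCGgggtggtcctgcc
The 4 probes of high runs hold 2 or 3 CpGs and those of low runs 2 to 5. Group labels give the direction of the run, and among the probes shown only that of YTHDC2 kept the groups apart. At the chr14:1976865 probe subfertile bull 4 was at 0.81, above high-fertile bulls 2, 3 and 5 at 0.10, 0.54 and 0.56. The groups also overlapped at the probes that start at 566200 and 2310333. None of the sequences is on the array more than once, while those of 50 members are.

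Levels below are log2(IP/input) relative to the median of all non-control probes of the same array. Of the 3832 members, 3822 carried no non-uniformity flag and were tested. The tested probes lie below the array median as a class, since the median level of all 110686 was -0.16, so a negative level is typical here. Without the filter on input signal the median over all 177440 probes was 0.04. Headers of the files date the scans: high-fertile bulls 2 and 3 and subfertile bull 4 were scanned on a first date, and subfertile bulls 1 and 5 and high-fertile bull 5 on later dates. The 2 slides split the bulls otherwise, with subfertile bull 5 and high-fertile bull 5 on a slide of their own. IP signal was well above background at 99.9%, 75.5% and 96.7% of tested members in subfertile bulls 1, 4 and 5, and at 59.4%, 88.3% and 96.5% in high-fertile bulls 2, 3 and 5.

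Proximal ends as a whole differed from the rest of the autosomes by less than the spread between bulls. The median level of the members was 0.03, -0.27 and -0.06 in subfertile bulls 1, 4 and 5, and -0.30, -0.42 and 0.07 in high-fertile bulls 2, 3 and 5. The 3 bulls of the first scan date were the lowest, and subfertile and high-fertile bulls overlapped. The 106796 other autosomal probes had medians of -0.02, -0.26 and -0.10 in subfertile bulls, and -0.33, -0.25 and -0.02 in high-fertile bulls. Members minus others averaged 0.01 ± 0.09 (SD, n = 6 bulls) and was above 0 in 4 of the 6. High-fertile bull 3 stood apart from the other bulls, with members 0.16 lower than the rest (difference -0.16). Without this bull the difference averaged 0.04 ± 0.04, and the range over all alternatives is given below. In this bull the distal ends were also below the other autosomal probes, at -0.32 and -0.25. Its median input signal was 1966 at members, 1974 at distal ends and 1615 at the other autosomal probes. The part of input brightness was not tested. Group means of the member medians were -0.10 ± 0.15 in subfertile and -0.21 ± 0.25 in high-fertile bulls (SD, n = 3 each). No p is given for these summaries, since the members were chosen with earlier results known.

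The opposite ends of the autosomes differed from the proximal ends in the same direction in each bull. Members were lower than the 16945 tested probes of the last 3 Mb below each chromosome's highest probe coordinate in 6 of 6 bulls, by -0.07, -0.14 and -0.15 in subfertile bulls 1, 4 and 5 and by -0.18, -0.09 and -0.13 in high-fertile bulls 2, 3 and 5. The mean difference, proximal minus distal, was -0.13 ± 0.04 (SD, n = 6). Against the 2482 tested probes that start between 3 and 6 Mb, members were higher in 6 of 6 bulls, by 0.10 ± 0.04. Both are descriptions with no test. Distal probes held 2.68 CpGs on average, the members 2.79 and the stretch of 3 to 6 Mb 2.85, in the reverse order of their levels, and the part of CpG number in these differences was not tested.

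**Figure D1:**
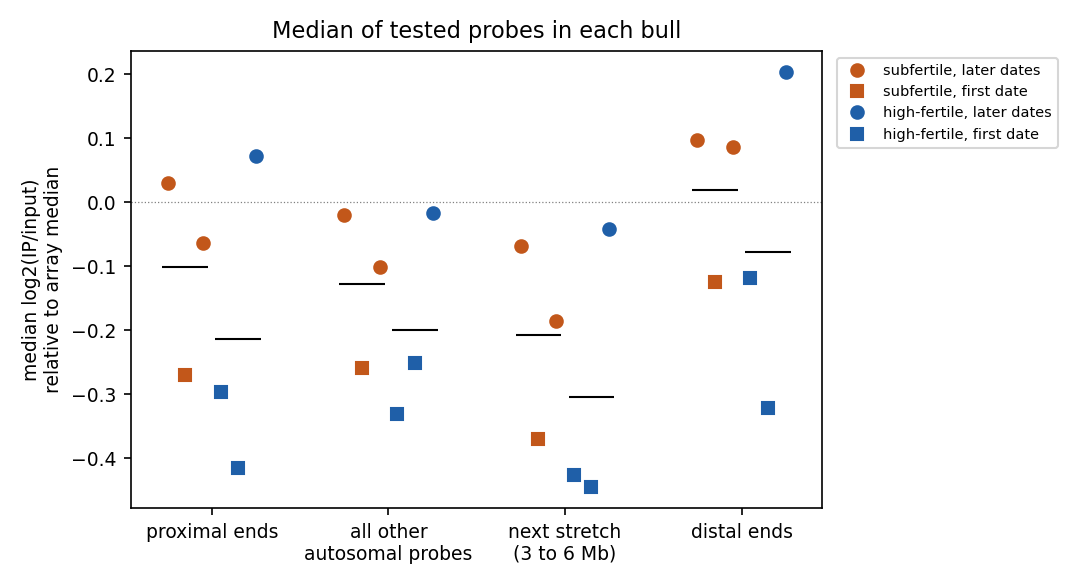
Median log2(IP/input) of tested probes (y axis, relative to the array median) in each bull, for proximal ends, all other autosomal probes, the stretch of 3 to 6 Mb and the distal ends. Points are bulls, circles for later scan dates and squares for the first, and black bars are group means of 3 bulls. In each bull the distal ends lie above the proximal ends and the 3 to 6 Mb stretch below them.

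Median levels fell slightly over the first 2.5 Mb and then rose, in steps smaller than the spread between bulls. The median level was -0.08 in the first 0.5 Mb (426 probes), -0.09 in the next (794 probes), -0.14 (660), -0.21 (700), -0.22 (695) and -0.16 between 2.5 and 3 Mb (547). In the first 0.5 Mb the bulls ran from -0.40 to 0.16. Beyond 3 Mb the next stretches of 0.5 Mb were at -0.18, -0.17, -0.30, -0.38 and -0.18, with no steady direction. These stretches mix chromosomes in unlike shares, and the part of chromosome make-up was not tested. The 100 tested probes just inside the 3 Mb limit had a median level of -0.46 and the 100 just outside it -0.15. With the limit at 1 Mb the proximal probes were 0.09 ± 0.10 above the rest (SD, n = 6), and with the limit at 5 Mb the difference was -0.03 ± 0.08.

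Proximal medians spanned a wider range over chromosomes than over stretches of 0.5 Mb, but several of the extreme chromosomes hold few probes. The highest proximal medians were on chromosome 6 (0.18, from 2 probes), chromosome 14 (0.01, 680 probes) and chromosome 23 (-0.01, 51 probes). The lowest were on chromosome 26 (-0.52, 15 probes), chromosome 4 (-0.48, 7 probes) and chromosome 2 (-0.36, 130 probes). On chromosome 14 the proximal median was 0.22, -0.16 and 0.15 in subfertile bulls 1, 4 and 5, and -0.11, -0.38 and 0.26 in high-fertile bulls 2, 3 and 5. That exceeded the rest of chromosome 14 (-0.18) in 5 of 6 bulls. On chromosome 26 the proximal probes were at -0.16, -0.63 and -0.28 in subfertile bulls and at -0.55, -0.87 and -0.37 in high-fertile bulls, below the rest of that chromosome in 6 of 6. Of 24 chromosomes with at least 10 tested members, 8 had a proximal median above that of the rest of the chromosome, and none of them in 6 of 6 bulls. Another 5 (chromosomes 1, 2, 11, 26 and 28) lay below it in all 6 bulls. Averaged over chromosomes with equal weight, the proximal ends were at -0.04 ± 0.05 relative to the rest.

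**Figure D2:**
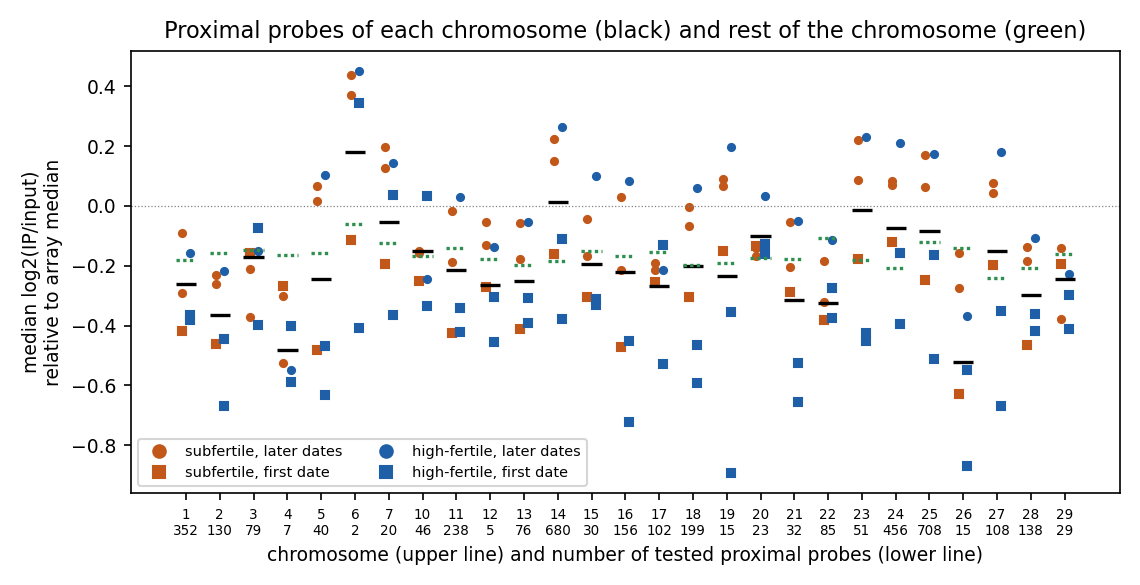
Median log2(IP/input) of proximal probes (y axis) on each chromosome with members (x axis, with the number of tested probes below). Points are bulls, subfertile left and high-fertile right, black lines are medians over the 6-bull mean of each probe, and green dotted lines are the same for the rest of the chromosome. The proximal end of chromosome 14 lies above its rest and that of chromosome 26 below.

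CpG number within a probe moved with level in the same way as elsewhere. Members without a CpG had a median level of -0.06 (197 probes), those with 3 CpGs -0.15 (1074 probes) and those with 5 CpGs -0.29 (327 probes). Other autosomal probes had -0.06, -0.17 and -0.28 in the same classes. In the class of 7 or more CpGs the median was -0.57 in 13 members and -0.36 in 654 others, which is too few members to compare. The slope differed between bulls: in high-fertile bull 2, of the first date, members without a CpG were at -0.08 and those with 4 at -0.40. In high-fertile bull 5, of a later date, these classes were at 0.07 and -0.01. Matching the members to others by CpG number left a difference of 0.00379 ± 0.0903 (SD, n = 6).

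**Figure D3:**
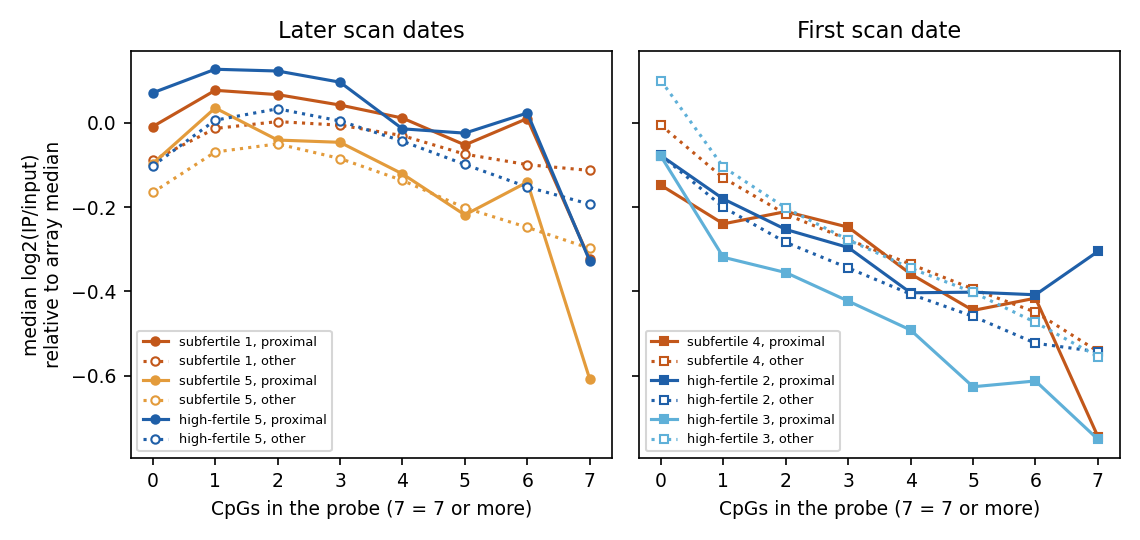
Median log2(IP/input) (y axis) by number of CpGs in the probe (x axis), for proximal probes (solid lines) and all other autosomal probes (dotted), in the 3 bulls of later scan dates (left) and the 3 of the first date (right). Lines slope down more on the first date. The last class holds 13 proximal probes.

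At the scale of runs, fewer proximal runs were called above the array median than below it, as was so for all runs. Of 385 proximal runs, 21 were above the array median at an adjusted p below 0.05, which is 5.45% of them (4.29% of all 9463 runs), and 91 were below it, 23.6% (24.2% of all runs). These shares are near the background of all runs. The split rests on the centring: with arrays centred on the tested probes instead, 80 proximal runs were higher and 64 lower (16.7% and 15.5% of all runs). Leaving out a bull moved the count of higher runs to 4 (subfertile bull 1), 33 (subfertile bull 4), 2 (subfertile bull 5) or 4 (high-fertile bull 2). It moved the count of lower runs to 40 (subfertile bull 5) or 44 (high-fertile bull 2). These leave-out counts are of proximal runs alone, without the share of all runs. In 18 runs all 6 bulls were above the median, 4.68% (4.71% of all runs), and in 180 probes, 4.71% (4.55% of all). In 882 probes all 6 were below, 23.1% (21.9% of all). Among the 3822 tested member probes 110 were higher (2.88%, with 2.74% of all probes) and 627 lower (16.4%, with 15% of all). Of the 63 windows of 1 Mb, 0 were higher (1.41% of all windows, with 10 proximal windows above 0) and 17 were lower (27% of them, with 24.3% of all windows).

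The higher runs were gathered on few chromosomes. Chromosome 14 held 10 of the 21 and chromosome 25 held 9, with 1 each on chromosomes 16 and 24. On chromosome 14 that was 11.9% of its 84 proximal runs, and 3 of its 168 other runs (1.79%) were called in this direction. On chromosome 25 it was 11.8% of 76 proximal runs, and 9.07% of the 386 others. The lower runs lay on 19 chromosomes, with 18 on chromosome 25 (23.7% of its proximal and 20.5% of its other runs), 14 on chromosome 14 (16.7% and 27.4%) and 11 on chromosome 1 (52.4% and 24%). Higher runs had a mean of 2.74 CpGs per probe and lower runs 3.11, and 3 of the 21 higher and 24 of the 91 lower ones held a gene-named probe.

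Highest of all stood a short run on chromosome 24, chr24:568059-568134, with 3 overlapping probes and no gene name. It measured 1.04, 0.13 and 1.28 in subfertile bulls 1, 4 and 5, and 0.71, 0.59 and 1.78 in high-fertile bulls 2, 3 and 5. All 6 bulls were above the array median, and the groups overlapped. Its level was 0.92 (SE 0.19, adjusted p = 0.0077). Next came chr14:701636-702422, with 9 probes, at 1.39, 0.37 and 1.14 in subfertile and 0.45, -0.03 and 1.55 in high-fertile bulls. High-fertile bull 3 was at the array median there and the level was 0.81 (SE 0.20, adjusted p = 0.0168). The run chr25:908534-908601 had 1.37, 0.29 and 1.26 in subfertile bulls, against 0.30, 0.17 and 1.31 in high-fertile bulls. The remaining 3 of the 6 highest were chr14:2788154-2788272, chr14:480827-480940 and chr14:2808773-2808847, at levels of 0.76, 0.72 and 0.62. In all 6, the 3 bulls of later scan dates were above the 3 of the first date. With normexp background correction none of the 6 passed the threshold, with levels of 0.27 to 0.48.

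Lowest was a run that includes a probe named for RBBP5, a core subunit of the complexes that methylate lysine 4 of histone H3. The run, chr16:1922564-1922861, with 6 probes, measured -0.71, -1.20 and -1.10 in subfertile bulls 1, 4 and 5, and -1.35, -1.62 and -0.61 in high-fertile bulls 2, 3 and 5. Its level was -1.10 (SE 0.15, adjusted p = 0.00148), and the groups overlapped. IP signal was well above background at 16 of 18 subfertile and 10 of 18 high-fertile spots, so the lowest values rest partly on dim spots. The second lowest run, chr13:1940710-1940819, had -0.98, -1.26 and -1.09 in subfertile bulls and -1.72, -0.58 and -0.89 in high-fertile bulls. With 9 probes and 3.89 CpGs per probe, it was at -1.09 (SE 0.15, adjusted p = 0.00153). The others were chr23:2966398-2966507 (-1.02), chr14:2329164-2329290 (-1.003), chr25:1815542 (-0.99) and chr25:828066 (-0.99, each named by its start). In each of these 6 runs all 6 bulls were below the array median. With dim-input probes kept, the RBBP5 run held 28 probes and its level was -0.16 (adjusted p = 0.427), that of the low chromosome 14 run was -0.38, and that of the run at 828066 turned to 0.27, none of them past the threshold.

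Windows of 1 Mb gave the broader picture. The highest was the first Mb of chromosome 1 (43 probes, 219730 to 988307), at a level of 0.24, with 0.56, -0.06 and 0.58 in subfertile bulls 1, 4 and 5 and -0.33, -0.12 and 0.81 in high-fertile bulls 2, 3 and 5. The 3 later-date bulls were above the array median there and the 3 first-date bulls below it. After it came chromosome 2 from 684136 with HERC2 (0.17), chromosome 7 from 2419193 with histone and TRIM genes (0.11) and chromosome 10 from 2406187 with the potassium channel gene KCNN2 (0.04), none past the threshold. The lowest were chromosome 13 from 1471717 (-0.82, adjusted p = 0.00123), the YTHDC2 window of chromosome 10 (-0.61), chromosome 26 from 2360823 (-0.44) and chromosome 17 from 309169 (-0.38). Each of these 4 was below the array median in all 6 bulls. The chromosome 13 window holds the low 9-probe run described above among its 11 probes, while its gene-named probe, of the phospholipase C gene PLCB1, was at 0.88. In the chromosome 26 window the probes of the kinetochore gene ZWINT were at 0.08.

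**Figure D4:**
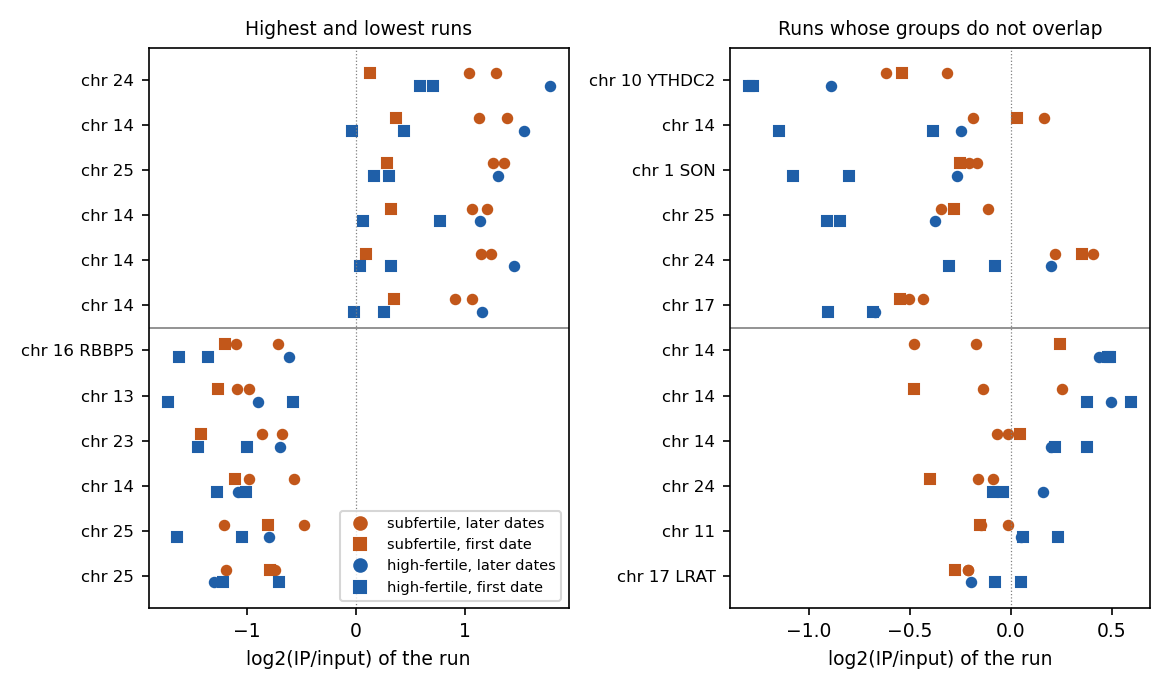
Log2(IP/input) per bull (x axis) of the 6 highest and 6 lowest proximal runs past the threshold (left) and of the 6 runs per direction that lead the group comparison and whose groups do not overlap (right). Rows follow the order of the text, subfertile bulls above high-fertile bulls within a row. In the highest runs, later-date bulls (circles) lie right of first-date bulls (squares).

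No proximal probe, run or window passed the test between subfertile and high-fertile bulls. At an adjusted p below 0.05, limma called 0 of 3822 probes, 0 of 385 runs and 0 of 63 windows, and 0% of all features of each kind. At an unadjusted p below 0.05 it had 72 proximal probes (1.88%, with 1.84% of all), 4 runs (1.04%, with 0.465% of all) and 1 window (1.59%, with 0.226% of all). Of those 72 probes 45 were higher in subfertile bulls (1.18%, with 1.08% of all) and 27 lower (0.706%, with 0.763% of all). Of the 4 runs 1 was higher (0.26%, with 0.232% of all) and 3 lower (0.779%, with 0.232% of all). With the scan session as a block the adjusted counts were again 0 of each kind, with 124 probes (3.24%, and 3.48% of all) and 11 runs (2.86%, and 2.2% of all) at an unadjusted p below 0.05 by limma. Within the first date the subfertile side is 1 array, that of subfertile bull 4, which a difference there cannot tell from its group. Within the later dates the high-fertile side is 1 array, so a difference there cannot tell that bull from its group. It set 2 probes apart (0.0523%, with 0.0307% of all) and 0 windows (0.679% of all). At chr1:333927-333986 subfertile bulls 1, 4 and 5 were at 0.40, 0.15 and -0.01, and high-fertile bulls 2, 3 and 5 at -0.27, -0.01 and 3.16. At chr27:615302-615361 they were at -0.68, -0.76 and -0.30, and at -3.25, -0.94 and 2.92. High-fertile bull 5 alone was high at both. The median standard error of a run's group difference was 0.26, and 90% of the run differences lay between -0.22 and 0.51. Subfertile bulls were higher at 297 of 385 runs, 77.1% (72.3% of all runs), and with the session block at 201, 52.2% (51.4% of all runs). In 13 runs the groups did not overlap, 3.38% (2.8% of all runs), 7 of them higher in subfertile bulls (1.82%, with 1.65% of all) and 6 lower (1.56%, with 1.15% of all). The same held for 222 probes (5.81%, with 5.78% of all), 121 of them higher (3.17%, with 3.2%) and 101 lower (2.64%, with 2.58%). It held for 2 windows (3.17%, with 1.75% of all), 1 of them higher (1.59%, with 1.47%).

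Among those 13, the smallest unadjusted p belonged to a run with a probe of YTHDC2, an RNA-binding helicase that mouse germ cells need to pass through meiosis. The run, chr10:1888717-1888798, with 8 overlapping probes and 4.88 CpGs per probe, was at -0.32, -0.54 and -0.62 in subfertile bulls 1, 4 and 5. In high-fertile bulls 2, 3 and 5 it was at -1.28, -1.30 and -0.89. All 6 bulls were below the array median, and all 3 subfertile bulls were above all 3 high-fertile bulls. The difference was 0.67 (SE 0.22, limma adjusted p = 0.9996). It was 0.59 with the session block and 0.19 with normexp background correction. Among first-date bulls, with subfertile bull 4 alone on its side, it was 0.75. Among later-date bulls, with high-fertile bull 5 alone on its side, it was 0.43. IP signal was well above background at 19 of 24 subfertile spots and 12 of 24 high-fertile spots.

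The other runs that were higher in subfertile bulls were chr14:566191-566267 (difference 0.60), chr1:1062841-1062978 with a SON probe (0.51), chr25:1611626-1611799 (0.46), chr24:370350-370426 (0.39) and chr17:2090046-2090129 (0.26). At the chromosome 14 run IP signal was well above background at 11 of 12 subfertile and 5 of 12 high-fertile spots. SON is a nuclear speckle protein that takes part in splicing, and over its 6 named proximal probes the difference was -0.03. Its run measured -0.17, -0.25 and -0.21 in subfertile bulls, and -1.08, -0.80 and -0.27 in high-fertile bulls. High-fertile bull 5 lay next to the subfertile bulls there, and within the later dates the difference was 0.08, with 0.69 on the first date. Subfertile bull 4 is alone on its side on the first date, and high-fertile bull 5 on the later dates. None of these passed the test.

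On the lower side chr14:1976837-1976936 measured -0.17, 0.24 and -0.48 in subfertile bulls 1, 4 and 5, and 0.49, 0.48 and 0.44 in high-fertile bulls 2, 3 and 5. The high-fertile bulls lay close together (SD 0.03) and above the spread-out subfertile bulls (SD 0.36), with a difference of -0.61 (SE 0.24). At chr14:2310329-2310396 the subfertile bulls had 0.25, -0.48 and -0.14 and the high-fertile bulls 0.38, 0.59 and 0.50, a difference of -0.61 (SE 0.24). The others were chr14:2285531-2285643 (-0.28), chr24:2386047-2386114 (-0.23), chr11:2682300-2682491 (-0.22) and chr17:2900432-2900725 (-0.16). The last overlaps LRAT, the enzyme that esterifies retinol, whose 5 named probes ran the other way (0.14). Of the first, 4 probes gave 8 of 12 subfertile and 9 of 12 high-fertile spots with IP signal well above background. For chr14:2310329-2310396 the counts were 4 of 9 and 6 of 9. None passed the test, and with normexp background correction these differences shrank to -0.12 and -0.15 for the first 2.

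Single probes gave larger differences and no call. Those with the smallest unadjusted p and groups apart were, on the higher side, 2 probes of the YTHDC2 run (1.22 and 0.96) and chr25:2745853-2745912 (1.02), each with IP signal well above background at 1 of 3 high-fertile spots. On the lower side they were chr14:2662525-2662584 (subfertile bulls lower, at spots too dim for a size), chr10:632141-632200 (-1.04) and chr25:2304248-2304307 (-1.05). The chromosome 14 probe had IP signal well above background at 1 of 3 subfertile and 0 of 3 high-fertile spots. At the chromosome 10 probe the counts were 1 of 3 and 2 of 3, and at the chromosome 25 probe 3 of 3 in each group. The chromosome 10 probe on the lower side was at -0.77, -0.84 and -0.75 in subfertile bulls and 0.51, 0.24 and 0.02 in high-fertile bulls. On chromosome 25 the probe at 2304248 was above the array median in all 6 bulls, at 0.14, 0.41 and 0.09 in subfertile and 1.44, 1.40 and 0.95 in high-fertile bulls. An overlapping probe, chr25:2304245-2304304, ran the other way, at 0.90, 0.95 and 1.23 in subfertile and 0.62, -0.38 and 0.35 in high-fertile bulls. That probe was no member, since its input was well above background at only 2 of 3 subfertile and 1 of 3 high-fertile spots. Among windows, the smallest p belonged to the second Mb of chromosome 10, whose 11 probes include the YTHDC2 run, at -0.25, -0.35 and -0.50 in subfertile bulls, against -0.98, -0.87 and -0.69 in high-fertile bulls (difference 0.48). The next were chromosome 19 from 443696 with CA10 (0.50) and chromosome 27 from 2030132 (0.36) on the higher side. On the lower side were chromosome 20 from 443656 with GABRP (-0.34) and from 1133605 with FOXI1 (-0.20), and chromosome 26 from 697165 (-0.20). Groups overlapped in each window after the YTHDC2 window. For the CA10 and GABRP windows the difference was 0.67 and -0.36 among first-date bulls, and -0.09 and 0.003 among later-date bulls. Each of these sets a single bull against the other group.

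Scan date separated the proximal values more than fertility did. Across the 3822 members, arrays of later dates correlated at 0.78 to 0.80 with each other, those of the first date at 0.37 to 0.47, and arrays of different dates at 0.20 to 0.34. These correlations run across probes that share arrays, tiles and base composition. Later minus first date, with the fertility group in the fit, 160 proximal runs were higher, 41.6% (33.8% of all runs), and 7 were lower, 1.82% (3.17% of all runs). Of probes, 326 were higher (8.53%, with 6.5% of all) and 27 lower (0.706%, with 1.58% of all). Of windows, 20 were higher (31.7%, with 20.8% of all) and 2 lower (3.17%, with 4.81% of all). The median run difference was 0.40, and 0.31 over all runs. With centring on the tested probes 69 proximal runs were higher and 18 lower (14.2% and 6.99% of all runs), at a median of 0.16, and 0.07 over all runs. Without high-fertile bull 5 the counts were 23 and 0, without subfertile bull 4 they were 97 and 2, and without subfertile bull 5 they were 140 and 2. These leave-out counts are of proximal runs alone, without the share of all runs.

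The largest such difference at the named runs was at chr14:1905255-1905362, with 13 probes and IP signal well above background at 39 of 39 spots of each group. Its later-date bulls, subfertile 1 and 5 and high-fertile 5, had 0.86, 0.97 and 1.02, and its first-date bulls, subfertile 4 and high-fertile 2 and 3, had -0.49, -0.46 and -1.04. The difference was 1.59 (SE 0.20, adjusted p = 7.42e-05). Also higher were chr25:1052456-1052543 (1.44), chr23:2938786-2938872 (1.41) and chr25:1540049-1540120 (1.31). In the other direction were chr23:1629726-1629841 (-0.99), chr14:2555833-2555908 (-0.71), chr24:1951992-1952075 (-0.67) and chr18:1822456-1822554 (-0.63). In that order, IP signal was well above background at 7 of 9, 6 of 9, 6 of 12 and 10 of 12 subfertile spots. Among high-fertile spots it was 5 of 9, 4 of 9, 6 of 12 and 6 of 12. At the first of these runs, later-date bulls had -0.08, 0.15 and -0.67 and first-date bulls 0.36, 0.45 and 1.501. Slide, protocol name and other steps that may have changed between dates were not tested apart from date. Comparing the group difference between dates rests on subfertile bull 4 and high-fertile bull 5, each alone on its side. The group difference was not called as differing between dates in any proximal run (0 of 385, adjusted, with 21 at an unadjusted p below 0.05 by limma, 5.45%, with 2.85% of all). Among probes it was also 0, with 184 at that unadjusted level (4.81%, with 4.85% of all).

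**Figure D5:**
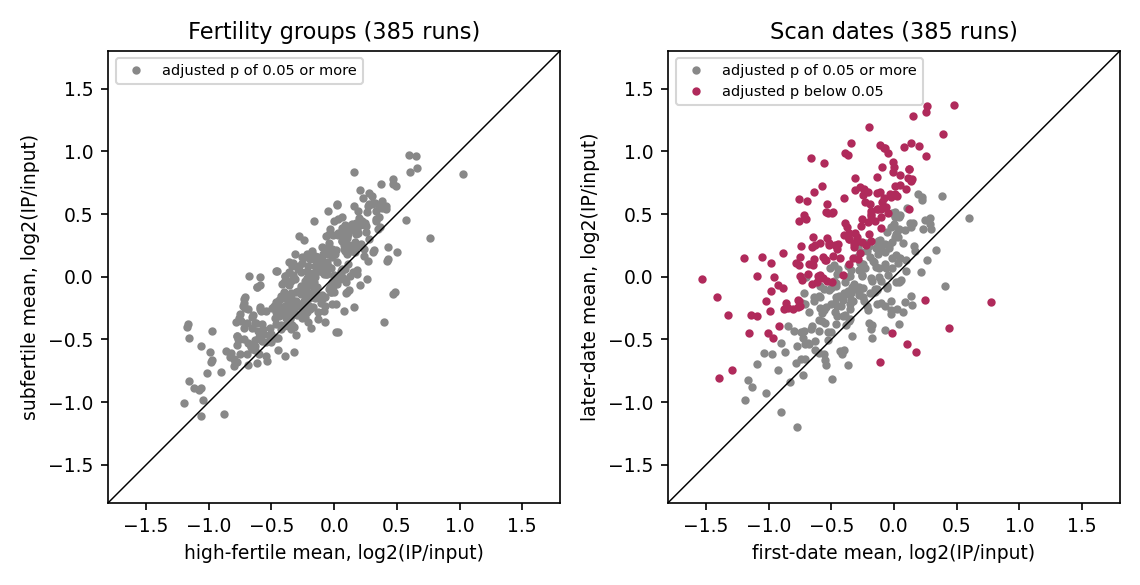
Each point is 1 of 385 proximal runs. Left, mean log2(IP/input) of 3 subfertile bulls (y axis) against 3 high-fertile bulls (x axis), with no run called. Right, mean of 3 later-date bulls (y axis) against 3 first-date bulls (x axis), with 167 runs called in colour. The line marks equality.

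The proximal ends hold known gene neighbourhoods, read here from 220 gene-named member probes with 140 names. Of these names 104 match a buffalo RefSeq symbol or synonym of assembly NDDB_SH_1. A gene value is the mean over the tested proximal probes of that name, most often 1 probe, wherever in the gene it lies, since the files do not give its feature class. Over all 4295 gene values the median level was -0.14, and over the 140 it was -0.17. Against the array median 3 were lower, 2.14% (3.07% of all gene values), and 0 were higher (0.21% of all, with 2 members above it in all 6 bulls). Those 3 were IL10RB, a subunit of the interleukin-10 receptor (-1.11), YTHDC2 (-0.89) and HN1L (-0.82), with adjusted p of 0.046 to 0.048. IP signal there was well above background at 2 of 3 subfertile and 0 of 3 high-fertile spots for IL10RB, whose probe holds 0 CpGs, so its level is that of a dim spot. YTHDC2 had 6 of 6 such subfertile spots and 2 of 6 high-fertile ones, and HN1L had 3 of 3 and 2 of 3. All 3 calls were lost with centring on the tested probes, with no input filter, and without any bull but high-fertile bull 5 (smallest adjusted p = 0.081). Between the groups 0 of 140 passed the test (0% of all), and 2 had an unadjusted p below 0.05 by limma (1.43%, with 0.792% of all). Within the later dates, 4 names (2.86%, with 2.12% of all) set 1 array, high-fertile bull 5, apart from subfertile bulls 1 and 5, which cannot tell that bull from its group. They were C7H5orf45, CASP4, MPZL1 and TUBGCP5. At CASP4, for example, read by 1 probe with 0 CpGs, high-fertile bull 5 was at -1.504 and high-fertile bulls 2 and 3 at 1.46 and 2.60. Subfertile bulls 1, 4 and 5 were at 0.02, 2.63 and -0.25. All first-date bulls were thus above all later-date bulls there, and later minus first date was -3.14 (limma adjusted p = 0.010). By scan date 11 were higher on later dates (7.86%, with 7.29% of all) and 15 of 140 lower (12.8% of all). The names with an unadjusted group p below 0.05 were YTHDC2 (difference 0.98) and FMOD, which encodes the collagen-binding fibromodulin (-0.88). FMOD was above the array median in all 6 bulls, at 0.30, 0.53 and 0.36 in subfertile bulls 1, 4 and 5 and 1.496, 1.76 and 0.58 in high-fertile bulls 2, 3 and 5. VAC14, a scaffold of lipid kinase complexes, was the other such name, with a level of 0.62.

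Genes around DGAT1, an enzyme of triglyceride synthesis known for its effect on milk fat, start chromosome 14. Of 73 listed genes 13 had a tested proximal probe, with a median level of 0.01, and 6 of the 13 were below the array median. None passed the test in either direction. DGAT1 itself, read by 1 probe, was at 0.52, -0.36 and -0.06 in subfertile bulls 1, 4 and 5 and -0.59, 0.04 and -0.04 in high-fertile bulls 2, 3 and 5, so the groups overlapped. CPSF1, a subunit of the mRNA cleavage and polyadenylation factor, had the highest level of the list, 0.37, at 0.99, 0.45 and 1.15 in subfertile bulls and -1.01, -0.38 and 1.05 in high-fertile bulls. ARHGAP39 was at 0.25, CYHR1 at 0.16 and FOXH1, a forkhead factor of Nodal signalling, at 0.13. Lowest was CYC1, cytochrome c1 of the respiratory chain (-0.87), at -0.24, -0.85 and -0.76 in subfertile and -1.41, -1.59 and -0.36 in high-fertile bulls. IP signal at its 1 probe was well above background at 2 of 3 subfertile and 1 of 3 high-fertile spots. ZNF7 (-0.36), LYNX1 (-0.35) and TONSL, a DNA repair protein (-0.24), followed. By group, 11 of the 13 had higher means in subfertile bulls, with a list median of 0.23 and 0.02 over all gene values. With the scan session as a block 7 of the 13 did, with a median of 0.07 and 0.03 over all gene values. CPSF1 (0.98) and LRRC24 (0.44) had the smallest p on the higher side, FOXH1 (-0.77) and LYNX1 (-0.14) on the lower. By scan date SHARPIN, of the linear ubiquitin ligase complex (1.41), and TONSL (0.92) were higher on later dates.

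Genes around the alpha-globin cluster start chromosome 25. Of 92 listed, 14 were measured, with a median level of -0.19 and 10 of them below the array median. HN1L was the only one that passed the test, in the lower direction. HBA, an alpha-globin, was at -0.16, -0.73 and -0.66 in subfertile bulls and -0.34, -0.58 and -0.74 in high-fertile bulls, over 3 probes. It was below the array median in all 6 bulls, at -0.53 (adjusted p = 0.084). FAHD1, a mitochondrial enzyme, was at -0.51 and SLC9A3R2, a scaffold of membrane transporters, at -0.49. PDIA2, a protein disulfide isomerase (0.50), RAB40C, a small GTPase (0.26), NME3, a nucleoside diphosphate kinase (0.20), and MRPS34, a mitochondrial ribosomal protein (0.14), were highest. PDIA2 ran from -0.46 in subfertile bull 4 to 1.56 in subfertile bull 5. The group differences with the smallest p were those of FAHD1 (0.45) and MAPK8IP3, a scaffold of JNK signalling (0.37), and of NME3 (-0.47) and LMF1, a lipase maturation factor (-0.30). None passed. By scan date RHBDF1, an inactive rhomboid protease (1.42), and DECR2, a peroxisomal enzyme of fatty acid breakdown (0.87), were higher on later dates.

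Genes around the locus of hornlessness start chromosome 1, and 8 of 35 listed were measured. Their median level was -0.36, with IL10RB, read at dim IP spots by a probe without a CpG, as the only call. IL10RB was at -0.78, -0.87 and -1.45 in subfertile bulls and -1.50, -0.61 and -1.45 in high-fertile bulls. OLIG1, a basic helix-loop-helix factor of oligodendrocytes, was at -0.38, -0.94 and -0.46 in subfertile bulls, against -1.01, -1.19 and -0.42 in high-fertile bulls. Each bull was below the array median at OLIG1, at a level of -0.73 (adjusted p = 0.058). C1H21orf59 (-0.81) and SON (-0.41) were also low, while GART, an enzyme of purine synthesis (0.27), CRYZL1 (0.16), URB1, of ribosome assembly (0.00), and RCAN1, an inhibitor of calcineurin (-0.32), were the highest. At C1H21orf59 and at GART, IP signal was well above background at 2 of 3 subfertile and 1 of 3 high-fertile spots each. OLIG1 (0.28) and GART (0.28) on the higher side, and C1H21orf59 (-0.29) and SON (-0.03) on the lower, had the smallest group p, and none passed.

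Few members came from lists that bear on sperm or imprinting. Of 108 germline and sperm genes, YTHDC2 was the only 1 measured. Its 2 named probes were at -0.38, -0.24 and -0.59 in subfertile bulls and -1.22, -1.86 and -1.08 in high-fertile bulls. Of 12 genes of the Prader-Willi/Angelman cluster 3 were measured, with no call against the array median or between groups. GABRA5, a subunit of the GABA-A receptor, was at -0.13, -0.08 and -0.27 in subfertile and -0.32, -0.48 and -0.05 in high-fertile bulls. HERC2, a ubiquitin ligase, had a level of 0.11. Of 194 developmental transcription factor genes 4 were measured, FOXI1 (0.25), FOXH1, EOMES, a T-box factor (-0.20), and OLIG1, with no call and a median of -0.03. Of 34 housekeeping genes 2 were measured, CYC1 and GART, with no call. No member carried a name from the lists of 50 imprinted genes, 36 leukocyte markers or 27 epithelial markers, so proximal probes cannot show whether other cells of semen added DNA. A level over many sperm does not separate the share of sperm that carry methylation from the number of methylated CpGs per molecule.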

How the data were processed

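The deposited scanner tables of 6 arrays give spot intensity values, extracted with Agilent Feature Extraction 10.7.3.1 and dye-normalized, per the file headers; the CGH protocol stands in 1 of the 6 headers, that of subfertile bull 1, and the ChIP protocol in the rest. The scanner tables also hold a log10 ratio, per the file headers. The deposited series table holds the log2 IP/input ratio of 177439 probes, which equals that of the scanner tables within 0.001. From processed signals, log2(IP/input) was computed and centred on each array's median over non-control probes, with no loess or quantile step. Probes with input well above background on all arrays and no non-uniformity flag were tested. Runs and windows had at least 3 probes. Groups, level and session were tested with limma 3.58.1 in R 4.3.3 (lmFit, eBayes, two-sided, Benjamini-Hochberg over all features, 0.05), n = 6 bulls, 3 per group. The fits were also run on simulated independent noise with added shifts. That noise lacks the date structure of these arrays, so the check does not give power or error rates for them. Plots used matplotlib 3.10.9. Dyes were not swapped, so a dye effect is shared by all arrays. The number of arrays limits precision. Of the members, 91.3% overlap a neighbouring member. The labels do not name separate herds or collections.

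The members, gene lists and tests were chosen with earlier results of these data known. Named are 6 runs per direction by level and by group p (groups apart), 4 by session, 3 probes and windows per direction by group p and 4 windows by level, and per gene list the 4 highest, 4 lowest and 2 per direction by group p; the 3 gene calls, FMOD, VAC14, the gene names called by scan date, PLCB1, ZWINT and the features within later dates were added after their values were seen, as were gene-name values, the slide block and the test between sessions. Gene symbols came from 3 of the 6 tables. A result for 1 gene is not reported here.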

Additional observations from a re-analysis of the deposited data

How the results depend on the processing

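No paired analysis was possible because the groups share only 1 replicate number, 5, and nothing in the labels pairs those bulls. Group counts stayed at 0 in proximal probes, runs and windows in all alternatives but 2: 2 probes within the later dates, where the high-fertile side is 1 bull, and 1 window without high-fertile bull 5. Each count in this section is of proximal features alone, without the share of all features. Such a count cannot tell a proximal shift from an array-wide one. Counts against the array median were less stable, listed here as higher and lower. With normexp background correction they were 58 and 988 probes, 1 higher run and 28 lower windows. Centred on the tested probes they were 335 and 367 probes, 80 higher runs, and 1 and 3 windows. With no filter on input signal they were 277 and 297 probes, 67 and 47 runs, and 0 lower windows. With IP signal also above background they were 343 lower probes, 51 lower runs and 11 lower windows. The session block gave 363 and 1035 probes, 66 and 149 runs, and 1 and 38 windows. The slide block gave 232 higher probes, 57 higher runs and 1 higher window. Leaving out each bull gave 6 to 111 higher and 69 to 742 lower probes, 2 to 33 higher and 40 to 128 lower runs, and 0 to 1 higher and 3 to 35 lower windows. Between sessions, normexp gave 3 lower runs and 1 lower window, and tested-probe centring 69 higher and 18 lower runs and 1 higher window. No filter gave 44 lower runs, and 3 higher and 26 lower windows. Leaving out each bull gave 23 to 186 higher and 0 to 10 lower runs, and 0 to 30 higher and 0 to 4 lower windows. Of the named runs, 2 changed sign: chr24:2386047-2386114 between groups, at 0.071 with normexp, and the run at 828066 on chromosome 25 against the array median, at 0.27 without the filter. The cause was not tested. Proximal minus rest ranged from -0.04 to 0.09 over all alternatives, within 1 SD of its main value. Input and IP brightness limit the lowest levels.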
